A study of Mus musculus with 13 samples.

Results

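This report describes the late-numbered mouse miRNAs of blood plasma: miRNAs whose number in the miRBase catalogue is 1000 or higher, leaving out miR-1193 and miR-1197. Members were chosen by their raw counts: a miRNA was taken where these, summed over all 13 libraries, reached 20. This left 120 of the 1907 miRNAs in the count table, and 1203 of the 1907 had at least 1 count. Of 1064 late-numbered miRNAs in the table, 487 had no count, 456 had 1 to 19 counts and 4 carried an excluded number. Since the summed counts are the rule, the abundance of the set is a description, and as 10 of the 13 libraries come from mdx mice a miRNA that is high in mdx plasma reached 20 more easily.

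Small RNA of plasma was sequenced in 13 male mice, with 1 library per mouse. The 3 naive wt mice (C57BL/10J, mice 86, 89 and 95) carried normal dystrophin and received nothing. All other mice were mdx mice (C57BL10ScSn-Dmdmdx/J), which carry a point mutation in the dystrophin gene and lack the protein in the whole body: 3 naive mdx mice (36, 37 and 39) received nothing, 4 mdx mice (40 to 43) received the vehicle methylcellulose by gavage, and 3 mdx mice (31, 34 and 35) received the histone deacetylase inhibitor Givinostat in that vehicle at 37.5 mg/kg by gavage for 15 weeks. The mdx mouse has a milder disease than patients with Duchenne muscular dystrophy. The strain label reads C57BL/10J for every sample, and the groups follow the sample titles and the methods of the study.

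miRNAs are short RNAs of about the length printed here that guide the silencing complex to messenger RNAs, mainly through the seed near their 5′ end. Most are cut from a hairpin first by Drosha with its partner Dgcr8 in the nucleus and then by Dicer, and each hairpin can release an arm from either side, called 5p and 3p. Mirtrons skip the Drosha step, because their hairpin is a short intron whose ends are made by splicing. A tailed mirtron shares only 1 end with the intron. miRBase numbers were given in order of discovery, so high numbers tend to belong to miRNAs that were found by deep sequencing, are often present only in rodents, and are less abundant than the early ones. Some of them overlap other short RNAs, such as the scaRNAs that guide the modification of spliceosomal RNA, and can be fragments of those.

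Of the 120 members, 103 were matched by name to RefSeq sequences of the genome build GRCm38, which the authors also used, and they were classed by the GENCODE annotation. The hairpins of 8 members were mirtrons, with both ends within 10 bases of the ends of an intron. A further 15 had 1 end within 10 bases of the end of an intron of at most 499 bases and were classed as tailed mirtrons. Inside another intron lay 39, 23 overlapped an exon of a longer transcript and 11 lay outside genes. In addition 6 were found whole in a short non-coding RNA and 1 lay opposite another miRNA hairpin. For 17 no entry was matched (miR-1839-3p, miR-3074-1-3p, miR-1948-5p, miR-1955-3p, miR-5107-5p, miR-5107-3p, miR-5134-5p, miR-6395, miR-6540-5p, miR-6952-3p, miR-6970-5p, miR-6979-3p, miR-7219-3p, miR-7224-3p, miR-7666-3p, miR-7668-5p and miR-8097).

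The mirtrons and short introns that the results turn on are shown first, as RNA from 5′ to 3′ with the seed (bases 2 to 8) in capitals. The miR-1981 hairpin fills the 82-base intron of Marc2, a mitochondrial reductase gene, at chr1:184822407-184822488 on the minus strand. The miR-7068 hairpin fills the 74-base intron of Cherp at chr8:72470016-72470089, and the miR-6944 hairpin the 96-base intron of Dbn1, the gene of the actin-binding protein drebrin, at chr13:55477681-55477776, both on the minus strand. The 3 miR-3102 members lie in a row in a 104-base intron of Arhgef17 at chr7:100882307-100882387 on the minus strand.
miR-1981-5p: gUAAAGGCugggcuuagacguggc
miR-1981-3p: cAUCUAACccuggccuuugac
miR-7068-5p: gUGAGGCUcaguauggggugg
miR-7068-3p: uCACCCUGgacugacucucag
miR-6944-3p: uAACUCUUcccuugugcccucag
miR-3102-5p.2-5p: gGUGGUGCaggcaggagagcc
miR-3102-3p.2-3p: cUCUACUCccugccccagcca
miR-3102-3p: gAGCACCCcauuggcuacccaca
Written whole, with both mature arms in capitals, the miR-1981 hairpin shows the mirtron layout, since it starts with the GU and ends with the ag that mark the 2 splice sites.
Mir1981 hairpin: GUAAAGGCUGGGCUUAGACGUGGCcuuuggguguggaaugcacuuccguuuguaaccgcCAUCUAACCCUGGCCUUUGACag

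The 5p arms of miR-1981, miR-7068 and miR-1224 began at the first base of their introns. The 3p arms of miR-7068, miR-6944, miR-6958 and miR-1982 ended at the last base of theirs, and miR-1981-3p stopped 2 bases short. miR-3102-3p stopped 1 base short of the end of the Arhgef17 intron and miR-3102-3p.2-3p ended at the base before miR-3102-3p began. RefSeq gave these 3 no hairpin coordinates and the annotation also holds a transcript that retains this intron, so the class rule counted them with the exons.

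**Figure D1:**
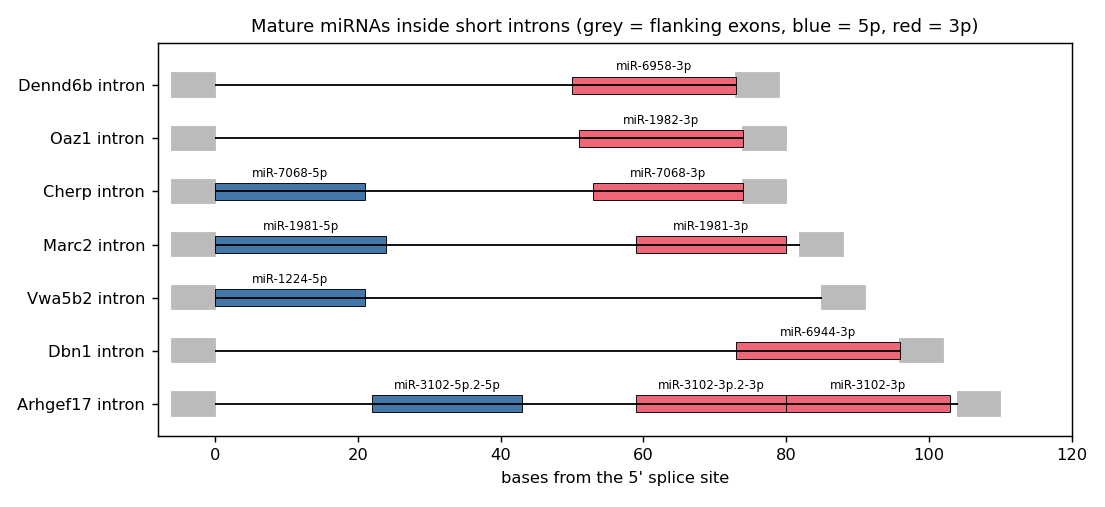
Mature members drawn in 7 short introns, with bases from the 5′ splice site on the x axis, flanking exons in grey (not to length), 5p arms in blue and 3p arms in red. In each intron a 5p arm starts at the left splice site or a 3p arm ends within 2 bases of the right one. In the Arhgef17 intron the last of 3 mature miRNAs ends 1 base from the right one, and the first starts 22 bases from the left one.

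The second set comes from short non-coding RNAs. miR-1843a and miR-1843b lie in the scaRNAs Scarna3b (chr12:80391613-80391677, minus strand) and Scarna3a (chr1:159340358-159340423, plus strand, in an intron of Cop1). The 5p arms of the pair are offset by 1 base, and the whole of miR-1843b-5p is also found in Scarna3b, so reads can be shared between the 5p arms. miR-1839-5p comes from a hairpin that the annotation itself lists as a scaRNA (chr7:81529916-81529988, plus strand), and miR-6516-5p lies in a scaRNA within Snhg20.
miR-1843a-5p: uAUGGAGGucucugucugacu
miR-1843b-5p: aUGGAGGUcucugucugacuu
miR-1843a-3p: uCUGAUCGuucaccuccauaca
miR-1843b-3p: cCGAUCGUuccccuccauac
miR-1839-5p: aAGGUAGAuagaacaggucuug
miR-6516-5p: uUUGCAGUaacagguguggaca

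The third set holds the other members with the most counts or the largest differences. miR-1198-5p comes from an intron of Gripap1 (hairpin chrX:7807101-7807221, plus strand), miR-1943-5p from an intron of Tmem184b (chr15:79375228-79375300, minus strand), and miR-1964-3p from an intron of the zinc finger gene Zfp84 (chr7:29773294-29773376, plus strand). miR-7689-3p (chr5:36301570-36301628, plus strand) and miR-5126 (chr1:84695839-84695915, plus strand) lie in no gene of their own strand, opposite Sorcs2 and Dner, and miR-6538 lies in an intron of the ubiquitin ligase gene Rnf144a (chr12:26414901-26415010, minus strand). miR-1199-5p lies in a coding exon of 2210011C24Rik (chr8:84011515-84011633, minus strand) and miR-8114 in the untranslated part of Glul, the glutamine synthetase gene (chr1:153899926-153900036, plus strand).
miR-1198-5p: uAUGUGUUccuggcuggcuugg
miR-1943-5p: aAGGGAGGaucugggcaccugga
miR-1964-3p: cCGACUUCugggcuccggcuuu
miR-7689-3p: uUAGAGCCagacugccuggguuu
miR-1199-5p: uCUGAGUCccggucgcgcgg
miR-8114: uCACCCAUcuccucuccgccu
miR-5126: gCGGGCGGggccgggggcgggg
miR-6538: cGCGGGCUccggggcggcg

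The last 2 of these sequences hold almost no A or U: the G and C content is 100% in miR-5126 and 94.7% in miR-6538. Over the 103 matched members the median was 54.5% (39.1% to 100%), against 47.8% (22.7% to 73.9%) in 376 earlier-numbered miRNAs with at least 20 counts. The seed was found in no other mature miRNA for 84 of the 103 members (81.6%) and for 56.6% of the 376. None of the 103 shares its whole mature sequence with another miRNA. Both measures use the RefSeq sequences alone and stand here as a description.

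The counts were unevenly spread over the members. miR-1198-5p alone held 20789 of the 62582 counts, miR-1981-5p held 9522 and miR-1839-5p held 6165. The median member had 66.5 counts, 44 members had over 100, and 62 had a count in all 13 libraries. By class, the 39 members inside other introns held 45.4% of the counts, the 6 in short non-coding RNAs 21.3%, the 8 mirtrons 16.4% and the 15 tailed mirtrons 1.33%. The 5 members just inside the threshold were miR-6540-5p, miR-7015-3p and miR-7048-3p, with 21 counts each, and miR-6948-5p and miR-7653-5p, with 20 each. Just outside were miR-1933-3p and miR-6940-3p, with 19 counts each, and miR-1668, miR-6933-5p and miR-6964-5p, with 18 each.

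Total counts per library were 1167161 to 2899315, so that a count of 0 allows up to 1.03 to 2.57 counts per 1000000 (CPM). This limit stands for 3 counts of the total and covers counting error alone, as the protocol names no molecular identifiers. The groups differed in the miRNAs that make up most of the plasma. miR-122-5p, made by hepatocytes, took at least 37.6% of a wt library and at most 10.6% of a naive mdx one. A list of 7 miRNAs of muscle and heart summed to between 0.707% and 2.09% in the wt group and between 28.3% and 39.7% in the naive mdx group. For the same groups, 5 red blood cell miRNAs took 0.499% to 1.05% and 0.800% to 1.70%, and 4 miRNAs of myeloid cells and platelets 0.855% to 1.88% and 0.674% to 0.971%. No miRNA of these lists was at 0 in any group. The abundance of miR-451a over that of miR-23a-3p, read as a sign of red cell lysis, lay between -0.11 and 0.11 in the wt group on the log2 scale. It was lower in all mdx groups: between -2.68 and -1.80 when naive, between -2.14 and -1.67 under vehicle, and between -1.54 and -0.69 under Givinostat. As wt and mdx ranges do not overlap, differences tied to this ratio and to genotype cannot be told apart. Which of its 2 miRNAs moved the ratio was not tested. In plasma a change of release or of clearance cannot be told apart from a change within cells.

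The joint share of the 120 members was small in every mouse and larger in the mdx mice when all counts were the base. It was 0.220%, 0.221% and 0.137% of the counts for wt mice 86, 89 and 95, whereas naive mdx mice 36, 37 and 39 had 0.568%, 0.346% and 0.369%. With vehicle it was 0.276% to 0.498% (median 0.345%), and in the 3 Givinostat mice 0.351%, 0.303% and 0.255%. All 10 mdx mice were above all 3 naive wt mice. Once miR-122-5p was taken out of the totals, these shares became 0.548%, 0.354% and 0.387% for wt and 0.575%, 0.357% and 0.413% for naive mdx, so that the groups overlapped. The higher share of the mdx mice was thus not seen against totals without miR-122-5p. Those totals still held the muscle and heart miRNAs, at 0.707% to 2.09% of naive wt and 28.3% to 39.7% of naive mdx libraries. A base without both was not tested.

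**Figure D2:**
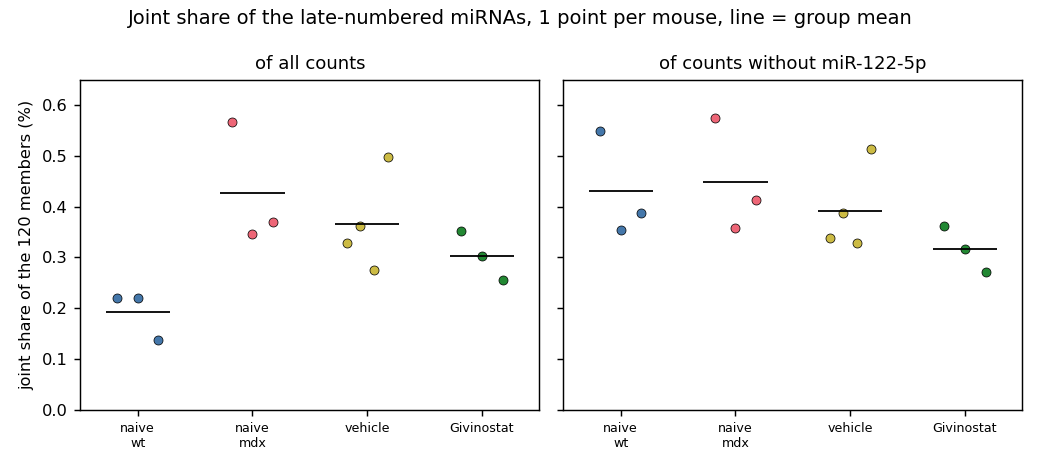
Joint share of the 120 members in each mouse (percent, y axis) by group, as a share of all counts (left) and of the counts without miR-122-5p (right), with a line at the group mean. On the left the naive wt mice sit at 0.137% to 0.221%, below every mdx mouse, and on the right they sit at 0.354% to 0.548%, among the mdx mice.

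For the comparison of single members, counts were scaled by TMM, a method that matches the bulk of the miRNAs rather than the totals, and tested with edgeR over the whole table. Of the 120 members 46 passed the filter on low counts, among 368 miRNAs tested. In naive mdx compared to naive wt mice, 24 of the 46 rose and none fell at an adjusted p under 0.05, against a background of 26.9% of all tested miRNAs higher and 16.6% lower. Before adjustment 25 members had p under 0.05, all higher (0 lower), against 112 higher and 86 lower of the 368. DESeq2 on all 120 called 31 higher and 1 lower, against 106 and 68 of 1203. The median log2 fold change was 1.07 over the 46 members and 0.04 over the 368. These figures are tied to how members were kept: the filter asks for about 7 CPM (6.96) in the size of the smallest group, and only 18 of the 46 members reached it in all 3 naive wt libraries, so that the other 28 passed through mdx mice or through part of the wt mice. Among those 18, 8 were called higher and 0 lower, and among all 271 tested miRNAs that reached it, 57 were higher and 60 lower. With no filter, 33 of the 120 members were higher and 1 lower, where the background was 9.31% and 5.65% of 1203 miRNAs.

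Of the 24 called members, 15 differed by more than 4-fold, and 2 by less than 2-fold. Of the 46 tested members, 25 were higher and 1 lower without overlap of the naive groups (57.6% of all tested miRNAs did not overlap, 29.9% higher and 27.7% lower). Called although the naive groups overlapped were miR-1249-3p and miR-8114. For 16 of the 46 all 10 mdx mice were above all 3 naive wt mice (21.2% of all tested miRNAs). Scaling to totals without miR-122-5p called 14 members higher and 6 lower (56 and 156 of 367). The median of all tested miRNAs moved to -0.62, and that of the members was 0.40. These totals still held the muscle and heart miRNAs, a far larger share of naive mdx than of naive wt libraries. The 10 calls lost with this scaling were miR-1839-5p, miR-1839-3p, miR-1843b-3p, miR-1964-3p, miR-5126, miR-6516-5p, miR-6970-5p, miR-7068-5p, miR-8103 and miR-8114, and those called lower were miR-1843a-5p, miR-1981-3p, miR-3074-5p, miR-5107-3p, miR-7043-3p and miR-7688-5p. With the lysis ratio as a covariate in the model no member was called (5 had an unadjusted p under 0.05). Only 1 of the 368 miRNAs was, against 160 in the main fit. As this ratio separates the wt from the mdx mice, the fit cannot tell it from genotype, and nothing is concluded from the lost calls.

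**Figure D3:**
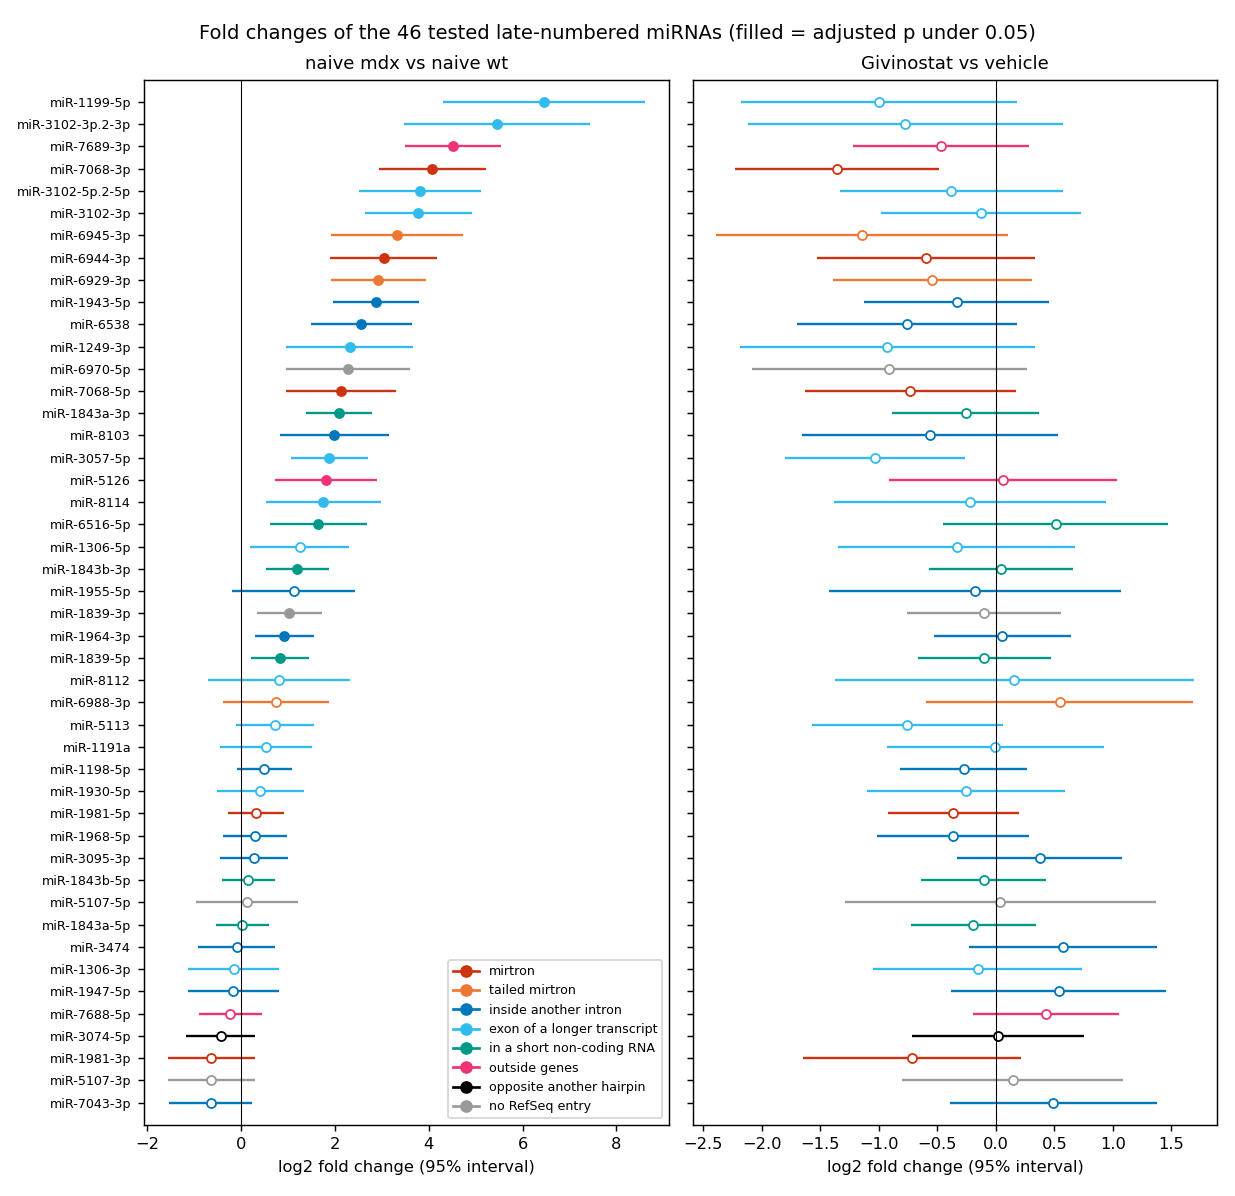
Log2 fold change with its 95% interval (x axis) of the 46 tested members (y axis), in naive mdx against naive wt mice (left) and Givinostat against vehicle (right), coloured by annotation class, with filled points where the adjusted p was under 0.05. On the left 24 points are filled, all to the right of 0, and on the right none is. The fitted value of miR-1199-5p, with no count in wt mice, depends on the fit and is no bound.

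Values in parentheses are log2 fold changes of naive mdx over naive wt mice with their standard errors (SE). Among the mirtrons, 3 of the 5 tested members rose, where 26.9% of all tested miRNAs were called higher. The 3 were under the filter's 6.96 CPM in every naive wt mouse and were tested only through the mdx mice. Of all 24 called members, 8 reached that level in all 3 naive wt libraries. The most abundant mirtron did not pass the test. miR-1981-5p was at 599, 294 and 312 CPM in naive wt mice and 542, 516 and 447 CPM in naive mdx mice, and its log2 fold change of 0.32 (SE 0.28) did not pass (edgeR adjusted p = 0.347). The ranges overlapped, with wt mouse 86 as high as any naive mdx mouse. miR-7068-3p was at 1.27, 0.564 and 0.470 CPM in naive wt mice and at 11.9, 19.1 and 10.3 CPM in naive mdx mice (4.07 on the log2 scale, SE 0.54, edgeR adjusted p = 1.41e-05). The other arm of this Cherp intron, miR-7068-5p, went from 2.53, 2.26 and 1.41 CPM to 11.3, 12.0 and 4.35 CPM (2.12, SE 0.55). Both arms were higher in all 10 mdx mice than in any naive wt mouse. miR-6944-3p of the Dbn1 intron was at 0.470 to 1.27 CPM and 4.35 to 11.9 CPM (3.04, SE 0.54), again without overlap. miR-1981-3p, at 8.87, 6.21 and 10.8 CPM in wt and 9.40, 2.83 and 4.35 CPM in naive mdx mice, did not pass (-0.64, SE 0.44).

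The 3 members of the Arhgef17 intron rose together. miR-3102-3p was at 1.90, 2.82 and 0.941 CPM in naive wt mice and at 40.1, 20.5 and 18.5 CPM in naive mdx mice (3.78, SE 0.54, edgeR adjusted p = 4.11e-05). miR-3102-5p.2-5p was at 1.90, 2.82 and 0 CPM against 33.8, 14.1 and 17.9 CPM (3.81, SE 0.61). miR-3102-3p.2-3p had 1, 1 and 0 counts in wt plasma and 60, 12 and 23 in naive mdx plasma. The ratio was 53.6 per effective library size, with a 95% counting interval of 14.4 to 449 (exact binomial on counts summed by group). This interval leaves out the spread between mice. All 3 stayed above the wt mice in every vehicle and Givinostat mouse, but they come from 1 intron and are not separate observations of it.

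Of the tailed mirtrons 3 were tested and 2 rose, where 26.9% of all tested miRNAs were called higher. These 2 were under the filter's 6.96 CPM in every naive wt mouse and were tested only through the mdx mice. miR-6945-3p of Pdlim7, a gene for a protein of the muscle Z-disc and the actin skeleton, was at 3.17, 0.564 and 0.470 CPM in wt and 16.3, 7.07 and 17.4 CPM in naive mdx mice (3.31, SE 0.67). miR-6929-3p of Ptges3l was at 0.564 to 1.41 CPM and 5.43 to 11.3 CPM (2.92, SE 0.48). The naive groups did not overlap for either. miR-6988-3p of Syvn1, at 12.0, 4.51 and 3.29 CPM against 16.3, 4.95 and 10.9 CPM, did not pass (0.74, SE 0.53). miR-3572-5p of Cnot3 was not tested for its low level. It had 2, 0 and 1 counts in wt and 14, 7 and 6 in naive mdx mice and was called when no filter was used (3.13, SE 0.77). Its hairpin starts 9 bases inside the intron and runs 15 bases past the other end, so it is a tailed mirtron by the class rule alone.

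Among the members from scaRNAs 4 of 6 rose, where 26.9% of all tested miRNAs were called higher. The arms of 1 hairpin went apart. miR-1843a-3p was at 36.7, 25.4 and 32.5 CPM in naive wt mice and 106, 185 and 112 CPM in naive mdx mice (2.09, SE 0.33, edgeR adjusted p = 0.000113). miR-1843a-5p was at 106, 91.4 and 113 CPM against 72.7, 134 and 109 CPM (0.02, SE 0.27, edgeR adjusted p = 0.957). The 3p arm was above the wt range in all 10 mdx mice, and the 5p arm of the same hairpin spread around the wt values. miR-1843b-3p was at 34.8, 31.6 and 26.8 CPM against 97.7, 53.7 and 62.5 CPM (1.2, SE 0.31), and miR-1843b-5p at 86.1, 76.7 and 89.4 CPM against 67.0, 128 and 84.7 CPM (0.15, SE 0.27). Here too the 3p arm passed and the 5p arm did not. Scaled to totals without miR-122-5p, miR-1843b-3p no longer passed (0.55, edgeR adjusted p = 0.180) and miR-1843a-5p was called lower (-0.71, edgeR adjusted p = 0.0409). miR-1839-5p was at 232, 239 and 212 CPM against 257, 527 and 424 CPM (0.82, SE 0.29, edgeR adjusted p = 0.0294), with naive mdx mouse 36 close to the wt mice, and miR-6516-5p at 3.80, 1.69 and 3.76 CPM against 5.64, 15.6 and 8.69 CPM (1.65, SE 0.49). The call of miR-1839-5p was lost without naive wt mouse 86, 89 or 95 or naive mdx mouse 37 or 39 (edgeR adjusted p from 0.0634 to 0.129), with upper-quartile factors, with no filter, with 2 groups only and with the mean of the mdx groups, and that of miR-6516-5p without mouse 89 (0.0715) or 37 (0.0857).

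The ratio of the 3p to the 5p arm within a hairpin does not depend on how libraries are scaled. It was computed for the 7 hairpins with both arms tested, after the values above were seen, as the log2 of the counts with 0.5 added. Its p-values thus describe a pattern already seen and are no separate support. The 10 mdx mice pooled below mix untreated, vehicle and Givinostat mice. Reads can be shared between the 5p arms of miR-1843a and miR-1843b, so the ratios of these 2 may mix both hairpins. For miR-1843a the ratio was -1.52, -1.84 and -1.80 for wt mice 86, 89 and 95, and 0.55, 0.46 and 0.04 for naive mdx mice 36, 37 and 39. The vehicle mice lay at -0.80, -0.57, 0.04 and 0.38 and the Givinostat mice at -0.53, -0.49 and 0.31. No mdx mouse reached the range of the wt mice. The difference between the 10 mdx mice and the 3 naive wt mice was 1.66, a 3.16-fold shift towards the 3p arm (two-sided exact permutation test, p = 0.0035, the smallest this design allows, and 0.0245 adjusted over the 7 hairpins). It was 1.59 to 1.76 when each mouse was left out in turn or 1 was added in place of 0.5. The naive mice alone, 3 against 3, differed by 2.07, where the exact test cannot go below p = 0.1.

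In the other 6 hairpins the shift did not pass. For miR-1843b the difference was 0.68 (exact permutation p = 0.101, adjusted 0.177), for miR-7068 0.96 (exact p = 0.0944, adjusted 0.177) and for the mirtron miR-1981 -0.86 (exact p = 0.0420, adjusted 0.147). miR-1839 at 0.33, miR-1306 at -0.56 and miR-5107 at 0.26 had exact permutation p-values of 0.217, 0.360 and 0.643. miR-1981 was by far the most one-sided of the 7: naive wt mice had 946, 522 and 663 counts of the 5p arm and 14, 11 and 23 of the 3p arm, and naive mdx mice 866, 730 and 823 against 15, 4 and 8. Between Givinostat and vehicle no ratio differed at an unadjusted p under 0.05, and the one of miR-1843a differed by 0.00 (exact permutation p = 1.0).

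**Figure D4:**
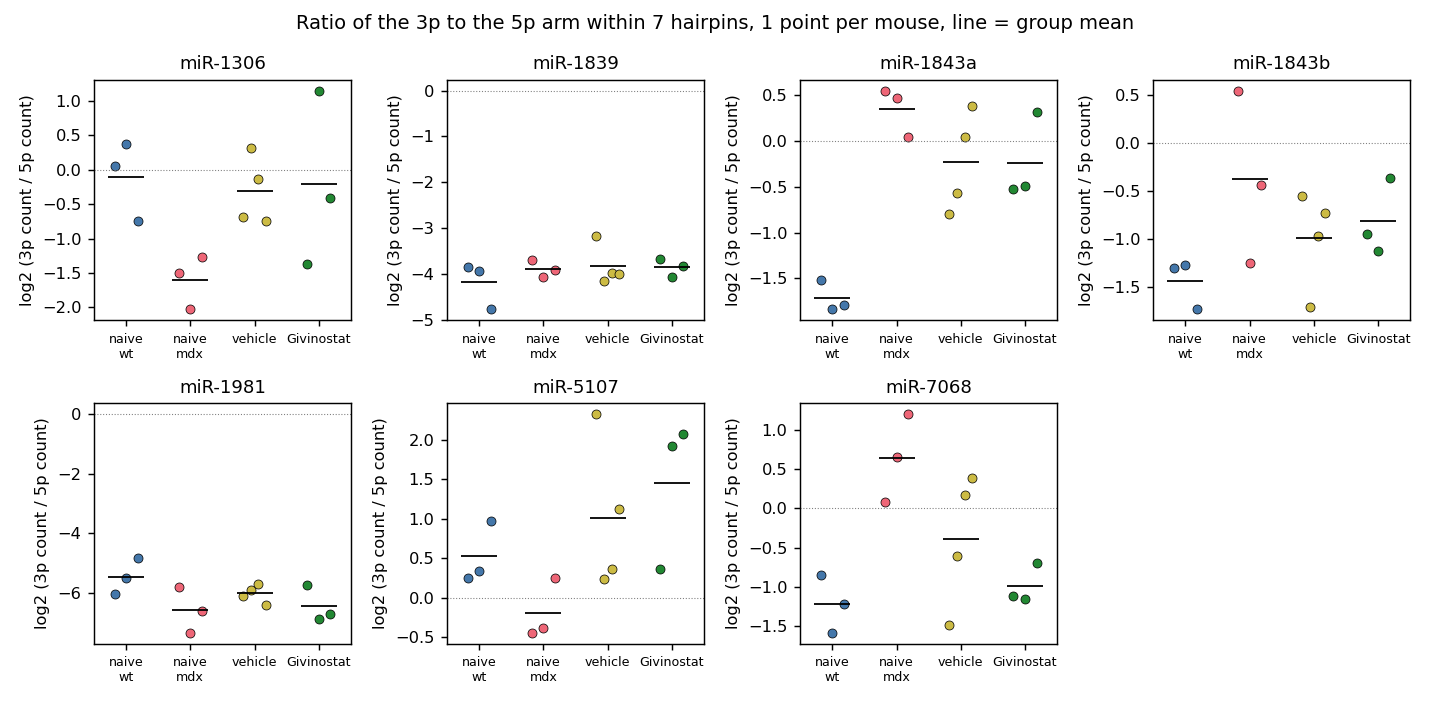
Log2 ratio of 3p to 5p counts (y axis) in each mouse by group for the 7 hairpins with both arms tested, with a line at the group mean. In miR-1843a the 3 naive wt mice sit at -1.84 to -1.52, below the 10 mdx mice at -0.80 to 0.55, while the ranges meet in the other panels when all mdx mice are pooled.

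Of the 11 tested members inside other introns 4 rose, where 26.9% of all tested miRNAs were called higher. miR-1198-5p, the most abundant member, was at 1150.1, 561 and 588 CPM in naive wt mice and 1174, 1159.8 and 904 CPM in naive mdx mice and did not pass (0.49, SE 0.27, edgeR adjusted p = 0.144). Wt mouse 86 was at the level of the mdx mice. miR-1943-5p was at 18.4, 11.3 and 7.53 CPM in naive wt mice and 117, 84.9 and 69.0 CPM in naive mdx mice (2.87, SE 0.44, edgeR adjusted p = 7.44e-05), with every mdx mouse above the wt mice. Its other arm, miR-1943-3p, was too rare to be tested, with 0, 1 and 0 counts in wt and 14, 5 and 3 in naive mdx mice, and was called when no filter was used (4.09, SE 0.96). miR-6538 was at 17.1, 7.90 and 13.6 CPM against 131, 33.2 and 64.6 CPM (2.56, SE 0.51), and miR-1964-3p at 98.8, 63.2 and 63.0 CPM against 179, 131 and 116 CPM (0.92, SE 0.30). miR-8103 of Osbpl7 was at 1.41 to 3.80 CPM and 6.36 to 18.2 CPM (1.99, SE 0.55). The calls of miR-1964-3p and miR-8103 were lost without naive mdx mouse 36 (edgeR adjusted p = 0.0571 and 0.0600), and that of miR-1964-3p also without naive wt mouse 89 (0.0749) or 95 (0.0681) and with 2 groups only.

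Members classed with the exons rose in 7 of 13 tests, where 26.9% of all tested miRNAs were called higher. Of these 7, 3 are the miR-3102 members above. Like those 3, miR-1249-3p overlaps an exon only where a transcript retains an intron. The miR-3102 members and miR-1199-5p were under the filter's 6.96 CPM in every naive wt mouse and were tested only through the mdx mice. miR-1199-5p had no count in any naive wt mouse and 14, 7 and 13 in the naive mdx mice. Its mean level in naive mdx mice was 12.6 times that of 3 counts over the wt group. This ratio leaves out the counting error of the mdx counts and the spread between mice. miR-1199-5p was found in every mdx mouse, at 1.57 to 9.61 CPM. miR-3057-5p, in an exon of Apba3, was at 13.3, 11.8 and 8.0 CPM against 63.3, 30.4 and 27.7 CPM (1.88, SE 0.39, edgeR adjusted p = 0.00108). miR-1249-3p was at 22.8, 10.2 and 10.8 CPM against 163, 31.8 and 21.2 CPM (2.31, SE 0.64), and miR-8114 at 21.5, 16.4 and 13.2 CPM against 129, 16.3 and 26.1 CPM (1.75, SE 0.58). For both the naive groups overlapped and mouse 36 was far above the next mouse, 2.78 times for miR-1249-3p and 3.05 times for miR-8114. Without mouse 36, miR-1249-3p was at 0.91 (SE 0.46, edgeR adjusted p = 0.122) and miR-8114 at 0.37 (SE 0.39, 0.441), and the call of miR-8114 was lost also without naive wt mouse 89 (0.0634) or 95 (0.0807), with 2 groups only, with the mean of the mdx groups and with limma. miR-1306-5p, cut from an exon of Dgcr8 itself, was at 14.6, 7.33 and 16 CPM against 52.0, 21.2 and 17.4 CPM and fell short of the threshold (1.25, SE 0.50, edgeR adjusted p = 0.0531). miR-5113 of Tnrc6b also did not pass (0.71, SE 0.39).

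Outside genes, miR-7689-3p had the smallest adjusted p of the members. It was at 1.90, 0.564 and 1.41 CPM in naive wt mice, with 3, 1 and 3 counts, and at 18.2, 42.4 and 32.6 CPM in naive mdx mice (4.51, SE 0.49, edgeR adjusted p = 1.57e-06). With vehicle it was at 16.8, 20.6, 16.9 and 30.7 CPM and with Givinostat at 14.9, 17.2 and 14.1 CPM, above the wt mice in all 10 mdx mice. miR-5126 was at 14.6, 27.1 and 64.5 CPM against 177, 94.8 and 103 CPM (1.80, SE 0.51), a spread of more than 4-fold within the wt mice. Its call was lost without naive wt mouse 86 (edgeR adjusted p = 0.0511) or 89 (0.0565). miR-7688-5p, at 13.6 to 24.1 CPM against 13.2 to 17.0 CPM, did not pass (-0.24, SE 0.32). miR-1934-5p, at 1.69 to 3.80 CPM and 3.80 to 12.5 CPM, was not tested.

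The remaining named members gave the following values. miR-1839-3p, the other arm of miR-1839, was at 15.8, 15.2 and 7.53 CPM against 19.4, 31.1 and 27.7 CPM (1.03, SE 0.33), and its call was lost without mouse 95 (edgeR adjusted p = 0.0813) or 37 (0.0539), with upper-quartile factors (0.0519), with no filter (0.0638), with 2 groups only (0.0822) and with totals without miR-122-5p (0.389). miR-6970-5p was at 1.27, 1.13 and 4.23 CPM against 22.5, 5.66 and 6.52 CPM (2.28, SE 0.63), and its call was lost without mouse 36 (0.0738). These 2 rose. miR-5107-3p (-0.64, SE 0.44), miR-5107-5p (0.12, SE 0.51) and miR-3074-5p, which is read from the strand opposite Mir24-1 (-0.44, SE 0.35), did not pass. Once no filter was used, 9.31% of all 1203 miRNAs were called higher and 5.65% lower. Of the 74 members not tested, 11 were called in that fit, 10 higher and 1 lower. The lower one was miR-1948-5p, with 6, 3 and 27 counts in wt and 0, 2 and 1 in naive mdx mice (-3.28, SE 0.82, edgeR adjusted p = 0.00128). Among the higher ones were miRNAs from Ryr1, the calcium release channel of skeletal muscle, and Dmpk, the kinase gene of myotonic dystrophy: miR-1963 had 4, 4 and 7 counts and miR-3100-5p 7, 0 and 3 counts in the naive mdx mice, and both had none in the wt mice. The other higher ones lie in Cnot3, Gse1, Tmem184b, Dennd6b, Ppp2ca, Rasa4, Slc37a4 and Nfic. miR-1963 and miR-3100-5p were named after their values were seen.

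**Figure D5:**
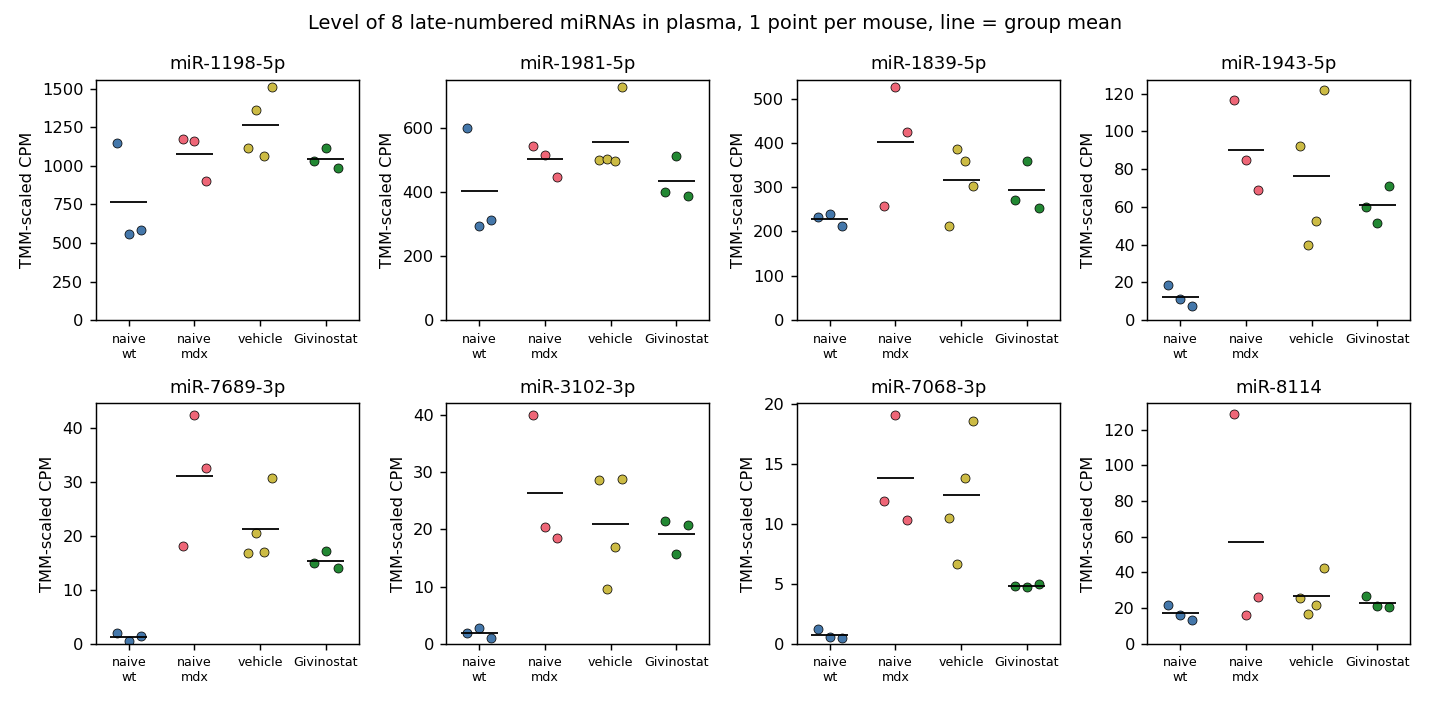
TMM-scaled CPM (y axis) of 8 members in each mouse by group, with a line at the group mean. miR-1943-5p, miR-7689-3p, miR-3102-3p and miR-7068-3p separate the 3 naive wt mice from all mdx mice, miR-1198-5p and miR-1981-5p do not, and the high mean of miR-8114 in naive mdx mice rests on 1 mouse at 129 CPM.

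Mouse 36, a naive mdx mouse with the fewest total counts, had the highest level of 33 of the 120 members (27.5%), and of 91 of the 554 miRNAs with at least 20 counts (16.4%). Without it, 19 of the 47 members then tested were called higher, all 19 among the 24, and the calls lost were miR-1249-3p, miR-1964-3p, miR-6970-5p, miR-8103 and miR-8114. The share of all miRNAs called higher in that fit is not given, so the 19 are compared with the 24 only. The part of mouse 36 in the other values was not tested beyond this. The called members had a median G and C content of 60.4% (22 of 24 with a sequence) and the other tested members 53.5% (20 of 22). Of the 24, 12 were 3p arms, 8 were 5p arms and 4 had no arm in their name, and of the other 22 these were 6, 12 and 4.

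Whether Givinostat changed these miRNAs was asked by comparing it with vehicle. No member was called by edgeR, with a background of 0.272% of the 368 tested miRNAs, and none by DESeq2. Before adjustment, edgeR had 2 members lower and 0 higher of 46 with p under 0.05, against 10 lower and 15 higher of the 368. DESeq2 had 4 lower and 1 higher of 120, against 12 and 18 of 1203. The median log2 fold change was -0.23 over the 46 members and -0.02 over all tested miRNAs. The groups did not overlap for 3 members lower and 2 higher with Givinostat (7.61% of all tested miRNAs did not overlap, 3.26% lower and 4.35% higher).

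miR-7068-3p had the smallest p. It was at 10.5, 6.62, 13.9 and 18.6 CPM with vehicle and at 4.77, 4.70 and 4.97 CPM with Givinostat, without overlap and still above the wt mice (log2 fold change -1.36, 95% interval -2.22 to -0.49, edgeR adjusted p = 0.257, unadjusted 0.00419). miR-3057-5p was at 39.1, 31.6, 23.1 and 49.3 CPM and at 15.5, 18 and 19 CPM (-1.03, interval -1.80 to -0.27, edgeR adjusted p = 0.382). Neither passed. Next came miR-5113 (-0.76, interval -1.57 to 0.06), miR-6945-3p (-1.14, interval -2.39 to 0.10) and miR-1199-5p (-1.0, interval -2.18 to 0.18). For the abundant miR-1198-5p the interval was -0.81 to 0.27, for miR-1981-5p -0.92 to 0.20 and for miR-1839-5p -0.67 to 0.47, so that a lowering of these members by more than about 2-fold lies outside their intervals and smaller changes were not resolved.

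The comparison of vehicle with naive mdx mice, which shares the vehicle mice with the one above, called no member either (edgeR and DESeq2, background 0.0% of 368). With an unadjusted p under 0.05 edgeR had 1 member lower and 0 higher (7 and 10 of the 368), and DESeq2 likewise 1 lower and 0 higher (6 and 14 of 1203). miR-5107-5p was at 16.3, 5.66 and 5.43 CPM in naive mdx mice and 1.4, 3.68, 2.31 and 5.12 CPM with vehicle, lower without overlap (-1.50, edgeR adjusted p = 0.801). It was the only tested member without overlap here, where 2.17% of all tested miRNAs did not overlap, 1.09% lower and 1.09% higher. The other members of smallest p were miR-8114 (-1.09), miR-7068-5p (0.87), miR-6988-3p (-0.97) and miR-6516-5p (-0.80), with adjusted p = 0.801 each (edgeR). miR-8114 turned to 0.33 without mouse 36.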

How the data were processed

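Plasma small RNA of 13 mice was sequenced on a NextSeq 500 from NEBNext libraries. Per the labels, the authors used bcl2fastq 1.37.0, cutadapt 1.4.2 (their text names Trimmomatic) and Bowtie 1.0.0 on GRCm38 and miRBase, and deposited raw counts per mature miRNA, summed over its variants. They also deposited log2 values, each the log2 of the count plus 1 constant per library, missing for low counts; these served only limma (pseudocounts 1 and 5). No pair of libraries of a group held copied values (15 pairs).

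Counts were scaled by TMM, filtered by filterByExpr (minimum count 10) and fitted with edgeR 4.0.16 (glmQLFit with legacy = FALSE, glmQLFTest; R 4.3.3), 1 mean per group over all 13 libraries, with Benjamini-Hochberg adjustment over all 368 miRNAs tested. The script was tested on simulated data. DESeq2 1.42.0 and limma 3.58.1 were alternatives. Nothing says that mice were pooled, and each library is 1 mouse.

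Named are members called, the 10 most abundant, up to 4 with the most counts per class, the 5 of smallest p where under 5 were called, and those around the threshold. The members and lists were chosen with earlier results of these data known.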

Additional observations from a re-analysis of the deposited data

Results flagged for a closer look

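1 of 44 values tested in the vehicle group, the only group of 4 mice, was flagged because 1 mouse stood far from the others. miR-1981-5p was at 729 CPM in vehicle mouse 43 and at 497 to 502 CPM in the other 3. The gap took 0.981 of the range of the group, above Dixon's 95% critical value for 4 samples. Chance flags about 1 in 20 groups. Mouse 43 had the highest level of 16 of the 120 members (13.3%), and of 33 of the 554 miRNAs with at least 20 counts (5.96%).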

How the results depend on the processing

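In naive mdx against naive wt mice, the count of members called higher (24) stayed within 22 and 33 under RLE factors, upper-quartile factors, library totals, no filter, DESeq2, limma and the mean of the 3 mdx groups, was 16 of 31 for members averaging 10 CPM or more, and 19 to 26 when each library was left out. It was 14 (with 6 lower) for library totals without miR-122-5p. With 2 groups only it was 14 of 38, where some of the 24 failed the filter and the spread comes from fewer mice. With the lysis ratio (miR-451a over miR-23a-3p) as covariate, which separates the wt from the mdx mice, it was 0. No filter and DESeq2 each called 1 lower. Shares over all tested miRNAs are not given for each of these fits, so the counts are compared with the 24 only. Under the covariate miR-1964-3p turned to -0.036 and miR-6516-5p to -0.40; leaving out each mouse, miR-8114 ran from -1.46 to 0.33 in vehicle against naive mdx mice, positive only without mouse 36. No other of the 34 fold changes followed (24 called, 10 of smallest p) changed sign. No member was called in either other comparison under any alternative. The mean joint share moved from 0.193% to 0.430% in naive wt mice without miR-122-5p in the totals. Without miR-1198-5p it was 0.127% in naive wt mice, 0.302% in naive mdx mice, 0.237% with vehicle and 0.199% with Givinostat. Leaving out each mouse gave 0.179% to 0.221%, 0.358% to 0.468%, 0.322% to 0.396% and 0.279% to 0.327%. No paired analysis was possible because the groups share no mouse numbers. The 74 members that failed the filter on low counts were tested only with no filter and with DESeq2, and 3 or 4 mice a group limit the precision.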
